A study of Mus musculus with 2 samples.

Results

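The transcripts described here are those of the 7 mouse Hox genes of paralogue groups 3 and 4: Hoxa3, Hoxb3 and Hoxd3 in group 3, and Hoxa4, Hoxb4, Hoxc4 and Hoxd4 in group 4. They were found by matching the Ensembl identifiers of the deposited gene and transcript tables to these symbols. The rule used no measured value, and it gave 7 of 43346 Ensembl genes and 21 of 103639 Ensembl transcripts. All 21 transcripts are accounted for below. Total RNA had been sequenced from hindbrain of B6NCrl mouse embryos at embryonic day 11.5. There is 1 group, with 2 biological replicates that each pool hindbrains dissected from embryos of both sexes. There were 109 embryos in pool 1 and 88 in pool 2. An input of 10 ng of RNA above 200 nt in size went into each library, and ERCC spike-ins, synthetic RNAs of known sequence, were added. Because tissue was pooled, differences between single embryos or between the sexes cannot be seen. A lower level in such bulk tissue can come from fewer cells of a type or from less RNA per cell, and these cannot be told apart.

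Hox genes encode homeodomain transcription factors that give cells along the head-to-tail axis their regional identity, and they lie in 4 clusters in which genes nearer the 3′ end are active further forward. In the developing hindbrain, groups 3 and 4 are known for their expression in the caudal rhombomeres, the segments next to the spinal cord, where retinoic acid signalling helps to set their limits. The clusters are compact, so that start sites, introns and antisense transcripts of neighbouring Hox genes lie across each other, and a short read can fit several annotated transcripts. The Hoxc cluster of the mouse has no group 3 gene.

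The homeobox, the part of each gene that encodes the DNA-binding homeodomain, lay in the last exon of 7 of 7 members. In the annotated transcripts of GENCODE vM21 (GRCm38, the same build as mm10), it spans 180 nt, of which 93 were the same base in all 7. Over the whole homeobox, the 3 pairs of group 3 genes were 92.8% to 93.9% identical. The 6 pairs of group 4 genes were 77.2% to 82.8% identical, and the 12 pairs across the groups 68.3% to 76.7%. When 1 whole transcript was compared per gene, the longest identical run between any pair was 47 nt, in Hoxb3 and Hoxd3. Hoxd3 and Hoxd4 share a longer run through a Hoxd4 transcript outside that comparison. No window of 100 nt was shared by any pair of members other than Hoxd3 and Hoxd4, whose transcripts overlap on chromosome 2. The likeness of the coding sequences was thus too short to leave windows of that size ambiguous between paralogues, and no gene outside the Hox clusters shared one either. The ambiguity described below is between transcripts of 1 locus.

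Depth was 45340440 expected counts in pool 1 and 41261544 in pool 2, where an expected count is the authors' estimate of the reads from a transcript and need not be whole. The members held 6033.39 and 5975.41 of these counts in pools 1 and 2. Of the summed TPM, 16.16% belonged to spike-ins in pool 1 and 22.22% in pool 2. TPM is a level per unit of transcript length, so levels of different genes can be set side by side. The tissue label was checked against markers, each counted where both pools had 1 TPM or more: 7 of 8 hindbrain genes and 1 of 4 forebrain genes (Lhx2) passed. Of other cell types, all 4 neural crest and ganglion genes, 6 of 7 mesenchyme and muscle genes, all 4 erythroid genes and both otic genes passed. Summed levels of these lists were 104.4 and 76.4 TPM for neural crest and ganglia in pools 1 and 2, 116.4 and 102.5 TPM for mesenchyme and muscle, 10040 and 9510 TPM for erythroid genes, and 106.5 and 49.65 TPM for otic genes. Of 5 Hox genes of spinal cord level, 0 passed, with sums of 3.28 and 0.83 TPM. Branchial mesenchyme and neural crest are also known to express Hox group 3 genes, and what these tissues add to the members' levels was not tested.

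All 7 members were detected in both pools, and they fell into a high pair, a middle trio and a low pair. Hoxd3, which together with Hoxa3 patterns the cervical vertebrae, had the highest level, 37.14 TPM in pool 1 and 39.79 TPM in pool 2. Hoxc4, the only member in the Hoxc cluster, followed with 28.11 and 26.02 TPM. These levels stood apart from all others in both pools.

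The middle trio lay close together. Hoxa3, needed for the thymus, the parathyroids and other pharyngeal derivatives, had 10.71 TPM in pool 1 and 9.17 TPM in pool 2. Hoxa4, a group 4 gene whose loss alters cervical vertebrae, had 8.93 and 8.80 TPM. Hoxb3, which acts with Hoxa3 in the caudal rhombomeres and in their motor neurons, had 7.72 and 8.63 TPM. The ranges over the pools did not overlap between these neighbours. The deposited TPM bounds of Hoxa3 and Hoxa4 overlapped in pool 2, where they ran from 8.40 to 10.1 TPM and from 7.75 to 9.52 TPM, but not in pool 1. Those of Hoxa4 and Hoxb3 overlapped in both pools. The order within the trio is therefore not firm.

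The low pair was Hoxb4, known also for its role in blood stem cells, with 2.65 TPM in pool 1 and 3.54 TPM in pool 2, and Hoxd4, a retinoic acid target in the hindbrain, with 2.48 and 2.53 TPM. Their bounds also overlapped in both pools. As mean ± SD over the pools (n = 2), the levels were 38.5 ± 1.87 TPM for Hoxd3, 27.1 ± 1.48 TPM for Hoxc4, 9.94 ± 1.09 TPM for Hoxa3, 8.87 ± 0.0919 TPM for Hoxa4, 8.18 ± 0.643 TPM for Hoxb3, 3.10 ± 0.629 TPM for Hoxb4 and 2.51 ± 0.0354 TPM for Hoxd4. Expected counts behind these levels ran from 117.5 (Hoxd4) to 2488.81 (Hoxd3) in pool 1 and from 110.35 to 2686.83 in pool 2. The 95% Poisson intervals were 97.2 to 140.8 for Hoxd4 and 2392 to 2589 for Hoxd3 in pool 1. They cover counting error only, and leave out the division of reads between transcripts.

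The order changed when only transcripts annotated with a complete coding sequence were counted, a choice made after the levels had been seen. Hoxc4 then led with 28.11 TPM in pool 1 and 26.03 TPM in pool 2. Hoxa4 followed with 8.93 and 8.80 TPM, and Hoxa3 with 9.51 and 7.92 TPM. The ranges of Hoxa4 and Hoxa3 overlap. Hoxd3 came next, with 6.24 and 7.87 TPM, and Hoxb3 had 5.39 and 6.04 TPM. Hoxd3 was thus at rank 1 by its whole level and at rank 4 by its complete coding transcripts, while 4 of 7 members kept their place. Rank 4 is not firm. In pool 2 Hoxd3 lay next to Hoxa3, at 7.87 against 7.92 TPM. The coding transcripts of Hoxd3 also have wide deposited bounds, such as 2.46 to 5.56 TPM for Hoxd3-202 in pool 1.

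**Figure D1:**
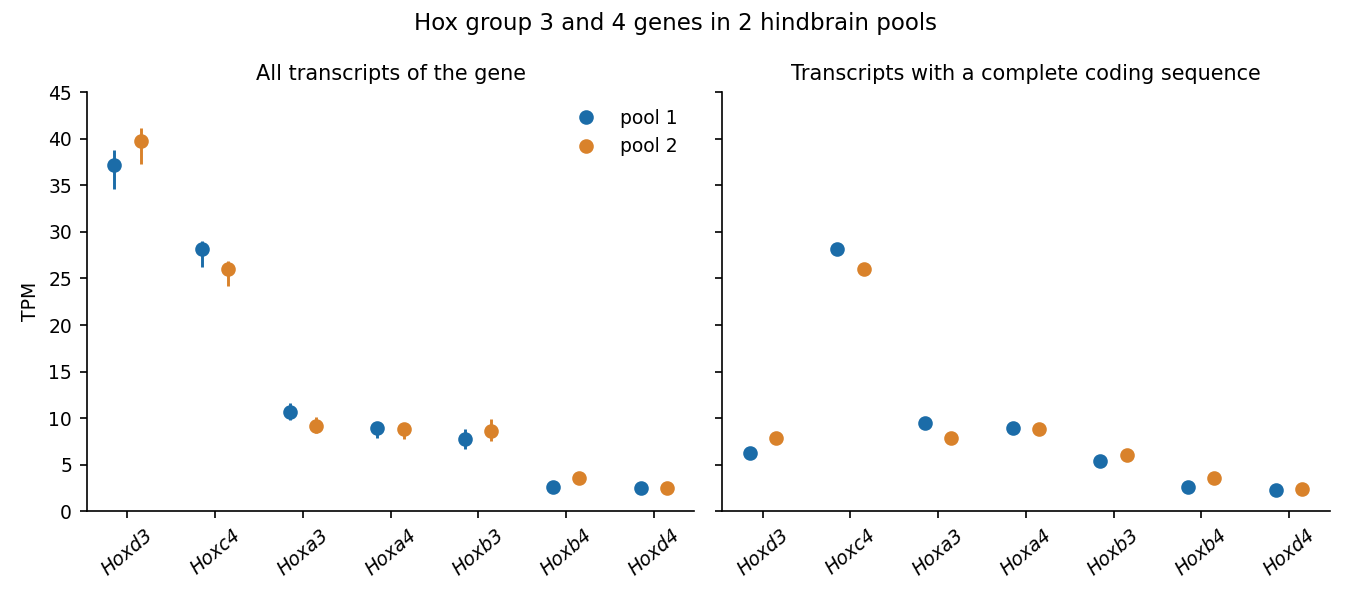
Levels of the 7 genes in TPM (linear axis) in pool 1 (blue) and pool 2 (orange), for all transcripts (left, with vertical lines for the deposited TPM bounds) and for transcripts with a complete coding sequence (right, no bounds). Hoxd3 stands at 37.14 and 39.79 TPM on the left and at 6.24 and 7.87 TPM on the right, whereas Hoxc4 holds nearly the same level in both panels. Every listed Hoxc4 transcript has a complete coding sequence, so its panels cannot differ beyond rounding.

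The paralogue groups differed in this respect, in part through which models are annotated. The group 3 genes summed to 55.57 TPM in pool 1 and 57.59 TPM in pool 2, of which 38.04% and 37.91% lay on complete coding transcripts. The group 4 genes summed to 42.17 and 40.89 TPM, of which 99.67% and 99.76% did. Every listed transcript of Hoxa4, Hoxb4 and Hoxc4 has a complete coding sequence, so their share was fixed by the annotation. In group 4 only Hoxd4-203, with 0.14 and 0.11 TPM in pools 1 and 2, could lower the share. By this estimate the larger group 3 sum held less on complete coding models, 21.14 and 21.83 TPM, than the group 4 sum, 42.03 and 40.79 TPM. These sums depend on how reads from exons common to several models were divided. Hoxd3 accounts for most of that gap, as the next paragraphs show. Of the 21 annotated transcripts, 12 have a complete coding sequence, 4 a partial one and 5 none. In all, 14 reached 0.5 TPM in both pools, 17 in pool 1 and 15 in pool 2.

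Most of the Hoxd3 estimate lay on 1 unspliced model. Hoxd3 occupies chr2:74711927-74748442 on the plus strand and has 6 transcripts. Hoxd3-206 is a single exon of 2721 nt without a coding sequence, annotated as a retained intron. It had 25.91 TPM in pool 1 and 29.05 TPM in pool 2, from 1997.74 and 2152.58 expected counts. That was 69.76% and 73.03% of the gene's TPM. It runs from 600 nt inside the last intron through the last exon, homeobox included, and ends 171 nt beyond the longest spliced form.

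The last exon is joined to different sequence in the spliced, unspliced and alternative forms, and the stretches are shown because reads across these joins differ between the forms. Sequences are from the GENCODE vM21 transcripts. Capitals mark the first 24 bases of the last exon, and lower case the 24 bases before them.
Hoxd3-202, spliced (chr2:74744532-74744555 joined to chr2:74746322-74746345): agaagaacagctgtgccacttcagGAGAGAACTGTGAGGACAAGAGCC
Hoxd3-206, unspliced (chr2:74746298-74746345): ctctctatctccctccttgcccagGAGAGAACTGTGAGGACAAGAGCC
Hoxd3-204, short intron (chr2:74746197-74746220 joined to chr2:74746322-74746345): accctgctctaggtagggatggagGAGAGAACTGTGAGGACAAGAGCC

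The spliced form removes an intron of 1766 nt, whereas Hoxd3-204 removes only 101 nt and keeps a partial coding sequence. The lower-case stretch of Hoxd3-206 is the 3′ end of that intron, a run rich in c and t that ends in ag. Hoxd3-204 had 0.95 TPM in pool 1 and 0.31 TPM in pool 2. The forms that splice out the whole intron together were assigned more reads than Hoxd3-204 but far fewer than the unspliced model.

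Among those spliced forms, Hoxd3-202 starts 24588 nt downstream of the most distal start of the gene and had 4.21 TPM in pool 1 and 4.59 TPM in pool 2. Hoxd3-201 starts at 27692 nt and had 1.23 and 3.19 TPM. Their complete coding sequence is the same, 1299 nt, and they differ in the first exon. Hoxd3-201 looked higher in pool 2, but its deposited bounds, 0.0126 to 2.84 TPM in pool 1 and 1.04 to 5.04 TPM in pool 2, overlapped. Its posterior SD, the authors' measure of how uncertain the division of reads is, was 55.22 counts on a posterior mean of 89.64 in pool 1 and 60.63 on 179.96 in pool 2. The change of start site between the pools is thus within the uncertainty of the estimate.

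Hoxd3-205, a partial model of 415 nt that starts at 20986 nt, had 4.04 TPM in pool 1 and 2.55 TPM in pool 2. Because it is short, these levels rest on only 37.53 and 22.81 expected counts. Hoxd3-203 begins at the most distal start, beside the start of Hoxd4-203, the Hoxd4 transcript with the longest genomic span, and splices over the Hoxd4 coding exons to those of Hoxd3. It had 0.80 TPM in pool 1 and 0.09 TPM in pool 2, with bounds of 0.0496 to 1.62 TPM and 2.84e-06 to 0.605 TPM that overlapped. The use of this distal start was therefore not resolved in either pool.

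Such a makeup was uncommon among genes of these libraries. Transcripts without a coding sequence made up over 50% of TPM in both pools in 5.68% of 9112 protein-coding genes that had several transcripts. Hoxd3 was the 1 of 5 members with several transcripts for which this held. The leading transcript was annotated as a retained intron in both pools in 2.57% of these genes, and again in 1 of 5 members, Hoxd3. The median share without a coding sequence was 5.09% over all such genes, and the Hoxd3 share lay at percentile 97.8. In the other members with several transcripts the mean share was 12.4% (Hoxa3), 11.0% (Hoxb3), 5.00% (Hoxd4) and 0% (Hoxc4, which has no such transcript listed).

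**Figure D2:**
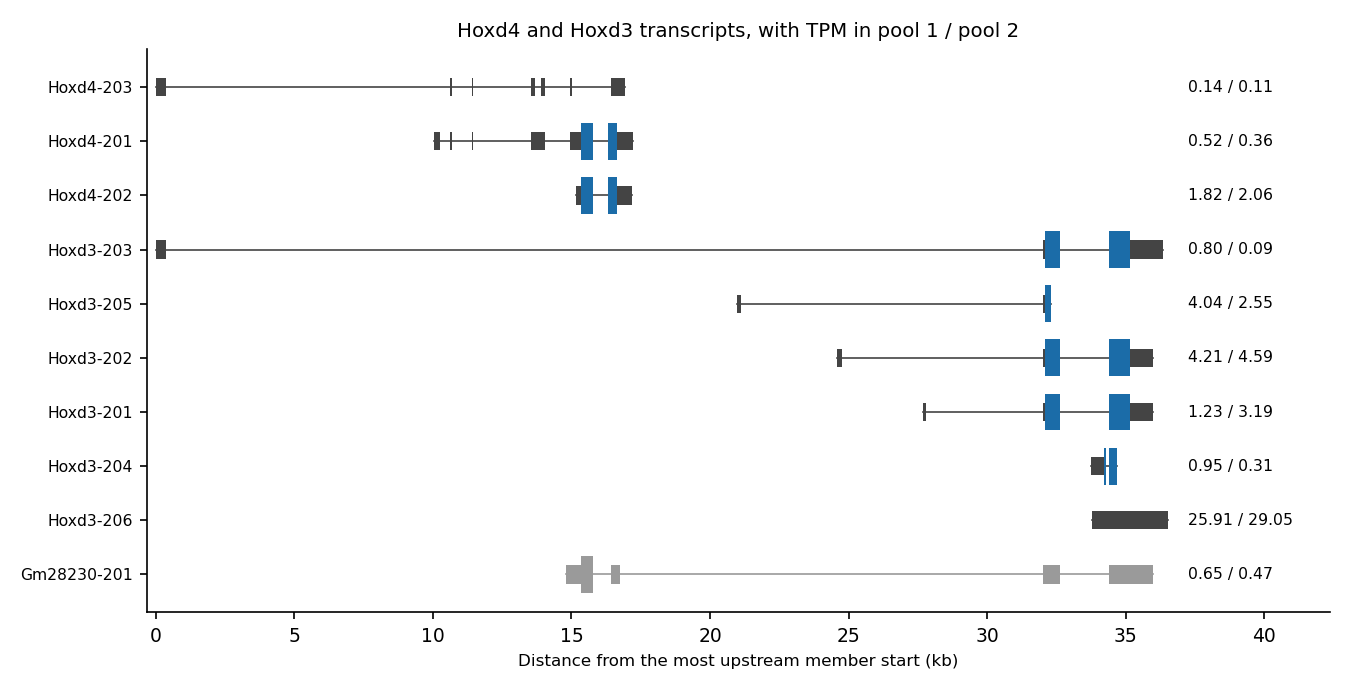
Annotated transcripts of Hoxd4 and Hoxd3 and of the readthrough gene Gm28230 (grey), drawn to scale against the distance in kb from the most upstream member start; tall blue boxes are coding parts, low boxes noncoding exon parts, lines introns, and numbers TPM in pool 1 / pool 2. The single exon of Hoxd3-206 at the right has 25.91 / 29.05 TPM, more than all other Hoxd3 models together.

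The Hoxd3 and Hoxd4 models overlap each other and further annotated genes on both strands. Gm28230 joins Hoxd4 exons to Hoxd3 exons on the same strand, and it covers 53.1% of the exonic bases of Hoxd3 and 39.1% of those of Hoxd4. It had 0.65 TPM in pool 1 and 0.47 TPM in pool 2, or 65.81 and 46.01 expected counts with posterior SDs of 16.04 and 12.96. How much sequence the models share was measured with all windows of 100 nt in the annotated transcripts. Of the windows of the Hoxd3 transcripts, 24.6% to 96.2% were shared with another gene of the same strand, nearly all with Gm28230. Hoxd3-206 had 367 of 2622 windows (14.0%) that no other transcript holds, and Hoxd3-201 had 3.83%. Part of what only Hoxd3-206 holds is the 171 nt at its 3′ end, past the longest spliced form, Hoxd3-203. Hoxd3-202 and Hoxd3-201 end sooner, 35988 and 35973 nt from the most distal start, against 36515 nt for Hoxd3-206. Past those ends, only Hoxd3-206 and Hoxd3-203 among the Hoxd3 models hold the sequence. Of the 600 intronic nt, Hoxd3-204 also holds all but the 101 nt it removes. Reads in the 3′ stretch can be placed on Hoxd3-206 although it is not intron. Whether they come from spliced RNA with a longer 3′ end was not tested.

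Hoxd4 lies upstream, at chr2:74711929-74729160, and was led by its shortest coding form. Hoxd4-202, with 2 exons, had 1.82 TPM in pool 1 and 2.06 TPM in pool 2, which was 73.39% and 81.42% of the gene. Hoxd4-201, which adds upstream exons to the same 750-nt coding sequence, had 0.52 and 0.36 TPM. Hoxd4-203 has no coding sequence, overlaps Hoxd3-203 in its first exon, and had 0.14 and 0.11 TPM. Hoxd4-202 lies wholly within exons of other models and had 0 windows of its own. Its start falls inside an exon of Hoxd4-201, so its level rests on read density and not on reads that only it can explain. The microRNA gene Mir10b lies in an intron of Hoxd4-201 and was listed at 0 TPM in both pools; RNA under 200 nt was not part of the libraries.

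Hoxa3 is the longest member, at chr6:52169062-52213336 on the minus strand, and it crosses its neighbours by introns only. Its full-length form Hoxa3-201 has 5 exons, and its span of 44054 nt covers Hoxa4, Hoxa5 and Hoxa6. It had 9.51 TPM in pool 1 and 7.92 TPM in pool 2, 88.8% and 86.37% of the gene, from 697.13 and 557.92 expected counts. Its deposited bounds did not overlap between the pools, 8.62 to 10.1 TPM in pool 1 and 7.07 to 8.46 TPM in pool 2. These bounds are not corrected for the offset between the pools, where the median gene was 0.11 higher in log2 in pool 1. Less that offset, the log2 ratio of the whole Hoxa3 gene was 0.09, so the separation is not firm.

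Models that begin in the distal start region of Hoxa3 thus held nearly all of the estimate. Hoxa3-201 is the only Hoxa3 model with the last exon and a complete coding sequence. Reads there are placed on it wherever a transcript starts, so use of the distal start itself was not measured. Transcripts whose span covers another Hox gene, Hoxa3-201 and Hoxa3-203, held 95.8% of Hoxa3 TPM in pool 1 and 93.7% in pool 2, while Hoxa3 shares 0 exonic bases with Hoxa4, Hoxa5 or Hoxa6. Hoxa3-203, which ends in a retained intron and has no coding sequence, had 0.75 and 0.67 TPM. Hoxa3-204, a noncoding model that starts 28462 nt further down, had 0.45 and 0.58 TPM. Hoxa3-202, a partial model of 347 nt, was the 1 of 21 transcripts with 0 expected counts in both pools, and its deposited upper bounds were 0.527 and 0.578 TPM. In the other members the corresponding share was 2.15% and 0.226% for Hoxd3 and 5.65% and 4.35% for Hoxd4 in pools 1 and 2, and 0 for the remaining 4.

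Hoxa4, at chr6:52189671-52191753 inside the long Hoxa3 intron, has 1 transcript of 2 exons. Its 8.93 and 8.80 TPM in pools 1 and 2 came from 392.47 and 371.57 expected counts. The next gene upstream, Hoxa5, had 29.60 TPM in pool 1 and 16.38 TPM in pool 2, and Hoxa6 had 8.78 and 1.42 TPM. Hoxa3 and Hoxa4 were within 1.17-fold between the pools, whereas these neighbours, known to be expressed further back along the axis, had higher values in pool 1. Hoxa2, on the other side of Hoxa3, had 49.31 and 48.14 TPM.

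Antisense genes lie across Hoxa3 and Hoxa4. Hoxaas2, opposite the 3′ end of Hoxa3, had 15.17 TPM in pool 1 and 20.94 TPM in pool 2 and covers 8.36% of the exonic bases of Hoxa3. Hoxaas3 had 17.24 and 10.64 TPM and covers 4.94%. 5730596B20Rik had 3.66 and 3.72 TPM, Gm15050 had 9.08 and 8.51 TPM, and Gm29430, which covers 16.0% of Hoxa4, had 0.11 and 0.27 TPM. The readthrough gene Gm28308 on the Hoxa3 strand was listed at 0 TPM in both pools.

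**Figure D3:**
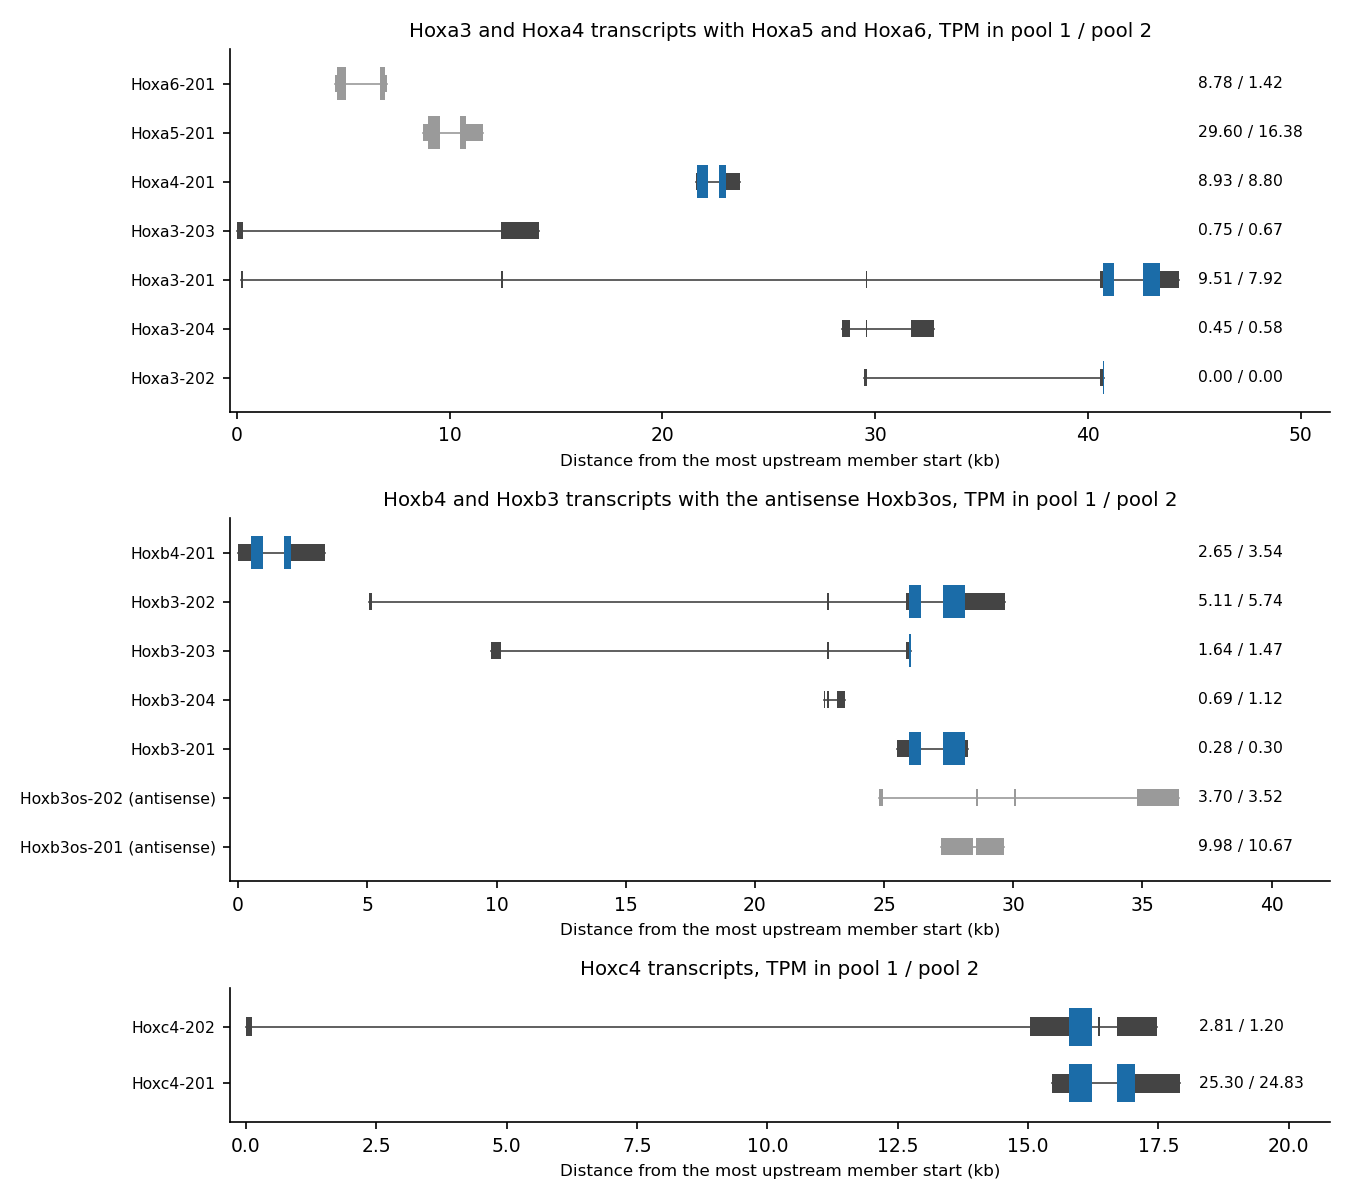
Annotated transcripts of Hoxa3 and Hoxa4 with Hoxa5 and Hoxa6 (top), of Hoxb4 and Hoxb3 with the antisense gene Hoxb3os (middle) and of Hoxc4 (bottom), to scale in kb from the most upstream member start in each panel; blue boxes are coding parts, low boxes noncoding exon parts, grey models are not members, and numbers give TPM in pool 1 / pool 2. In each of the 3 loci 1 coding model leads its gene, Hoxa3-201 with 9.51 / 7.92, Hoxb3-202 with 5.11 / 5.74 and Hoxc4-201 with 25.30 / 24.83.

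Hoxb3, at chr11:96323326-96347930 on the plus strand, was led by the form with the most distal start. Hoxb3-202 has 4 exons, starts 1688 nt beyond the end of Hoxb4, and had 5.11 TPM in pool 1 and 5.74 TPM in pool 2. That was 66.19% and 66.51% of the gene, the leading share that differed least between the pools. Hoxb3-201 starts 20443 nt downstream, has the same complete coding sequence of 1299 nt, and had 0.28 and 0.30 TPM. Of the complete coding models of Hoxb3, the one with the distal start therefore held most of the level. Its last exon also ends further downstream than that of Hoxb3-201, so the split does not measure start use alone. Complete coding transcripts made up 69.82% of the gene in pool 1 and 69.99% in pool 2.

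The remaining share lay on short models with few reads. Hoxb3-203, a partial model of 664 nt, had 1.64 TPM in pool 1 and 1.47 TPM in pool 2 from 27.29 and 23.5 expected counts. Hoxb3-204, a noncoding model of 446 nt, had 0.69 and 1.12 TPM from 7 and 11 counts. By share of reads instead of TPM, Hoxb3-202 held 90.44% of the gene in pool 1 and 90.95% in pool 2. The share of a leading transcript thus depends on whether reads or length-adjusted levels are counted, and most of all in Hoxb3.

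Hoxb3 is overlapped by an antisense gene across most of its last exon. Hoxb3os had 13.67 TPM in pool 1 and 14.19 TPM in pool 2, above the 7.72 and 8.63 TPM of Hoxb3, and covers 52.9% of the exonic bases of Hoxb3. Of the windows of Hoxb3-202, 2057 of 3091 (66.5%) also lie in Hoxb3os, on the opposite strand, and 0 lie in another gene of the same strand. The posterior SD of the gene's count was 22.36 in pool 1 and 21.88 in pool 2 for Hoxb3, on 513.9 and 550.81 expected counts. It was 31.49 and 35.39 for Hoxb3os, on 850.72 and 851.69 counts, and 0 in both pools for Hoxb4 and Hoxc4, whose windows are all their own. The labels and tables used here do not state the strand setting of the quantification. Hoxb3 shared windows on the opposite strand only, yet its gene-level SD was above 0. The levels of Hoxb3 and Hoxb3os are thus uncertain by at least these SDs. Those of the other members with antisense partners are uncertain to the extent that strand was not used. Gm11536, antisense within a Hoxb3 intron, had 1.33 and 1.70 TPM.

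Hoxb4, at chr11:96318267-96321638, has 1 transcript, of 2 exons. Its 2.65 TPM in pool 1 and 3.54 TPM in pool 2 came from 192 and 247 expected counts. The deposited bounds, 2.25 to 2.98 TPM in pool 1 and 3.05 to 3.92 TPM in pool 2, did not overlap. No other gene overlaps it. The neighbouring Hoxb5 had 32.00 and 22.81 TPM and Hoxb2, beyond Hoxb3, 48.89 and 46.38 TPM, so the Hoxb3 and Hoxb4 levels lay below those of both flanking genes.

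Hoxc4, at chr15:103018934-103036852 on the plus strand, has 2 transcripts, both annotated with a complete coding sequence. Hoxc4-201, with 2 exons, had 25.30 TPM in pool 1 and 24.83 TPM in pool 2, 90.0% and 95.39% of the gene. Hoxc4-202 starts 15461 nt upstream, runs through the start region of Hoxc4-201 and includes an extra exon of 49 nt. It had 2.81 TPM in pool 1 and 1.20 TPM in pool 2, from 167.1 and 68.3 expected counts with posterior SDs of 12.93 and 8.24. The pools thus differed 2.34-fold, and the bounds, 2.21 to 3.38 TPM in pool 1 and 0.816 to 1.59 TPM in pool 2, did not overlap.

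The coding sequences of the Hoxc4 forms part at the end of the shared exon, and the joins are shown for that reason. Lower case marks the 24 bases before the join, which are the same in both forms, and capitals the first 24 bases after it.
Hoxc4-201 (chr15:103035138-103035161 joined to chr15:103035637-103035660): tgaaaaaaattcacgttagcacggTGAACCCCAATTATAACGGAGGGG
Hoxc4-202 (chr15:103035138-103035161 joined to chr15:103035267-103035290): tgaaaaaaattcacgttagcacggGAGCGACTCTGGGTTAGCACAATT

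The annotated coding sequence is 792 nt in Hoxc4-201 and 453 nt in Hoxc4-202, and that of Hoxc4-202 contains 0 bases of the homeobox. Counted by transcripts that encode the homeodomain, Hoxc4 therefore stands at the 25.30 and 24.83 TPM of Hoxc4-201, still the highest of the 7. The upstream neighbour Hoxc5 had 15.80 TPM in pool 1 and 13.79 TPM in pool 2.

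The leading transcript was the same in both pools for 5 of 5 members with several transcripts, beside 88.9% of 10005 genes of that kind whose mean level was 1 TPM or more. No member (0 of 5) had a transcript whose share differed by 10 points or more between the pools, beside 32.2% of those genes, and 24.3% among genes with a mean of at least 5 TPM. The widest difference was 8.04 points, for Hoxd4-202, and the median of the widest difference over all such genes was 6.19 points. The Hoxc4 forms differed by 5.39 points. Deposited bounds were separate between the pools for 4 of 21 transcripts (Hoxa3-201, Hoxd3-206, Hoxb4-201 and Hoxc4-202), beside 21.7% of 40035 transcripts with a mean of at least 0.5 TPM. Of the 16 member transcripts at that mean, 4 (25%) had separate bounds, which is close to that background. The bounds are on TPM as deposited, without a correction for the offset of the median gene, which matters most for Hoxa3-201.

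**Figure D4:**
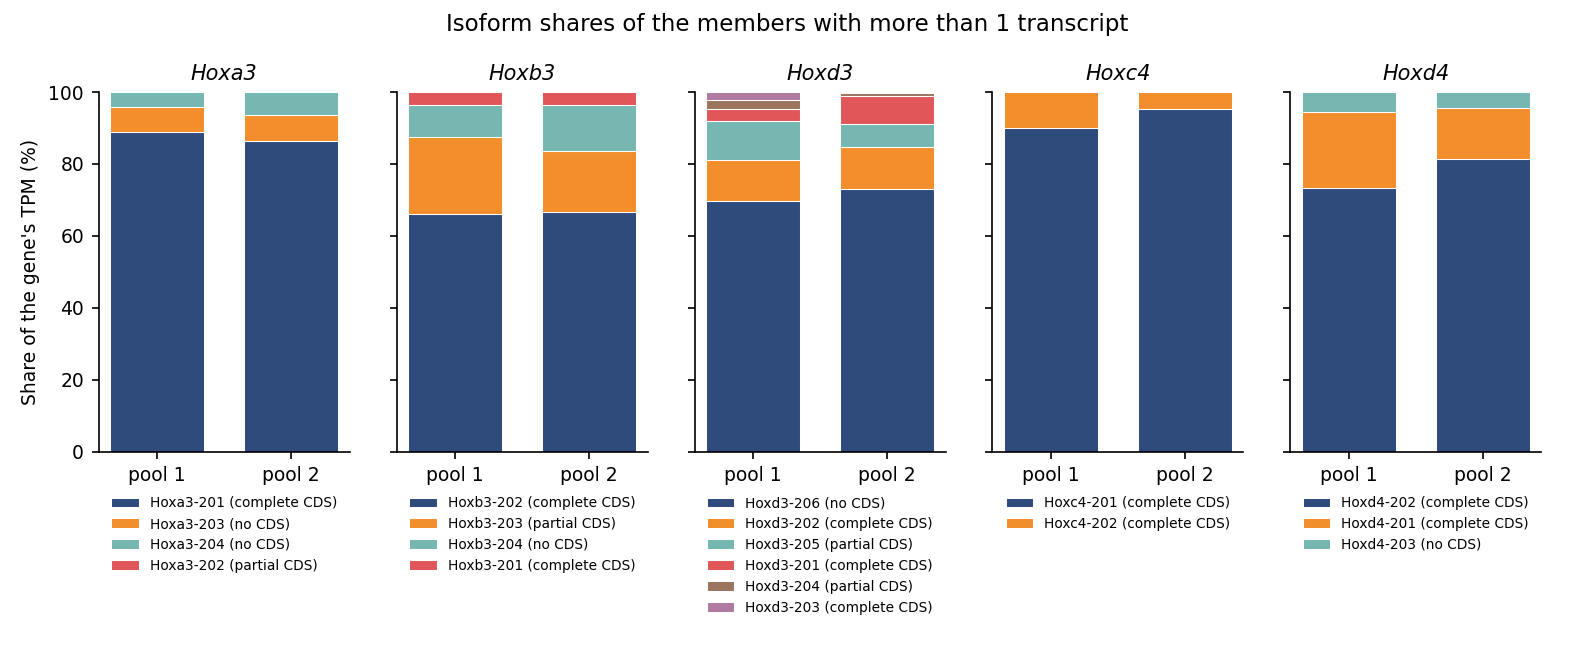
Share of each gene's TPM (%, stacked to 100) held by its transcripts in pool 1 (left bar) and pool 2 (right bar), for the 5 members with several transcripts; each legend states whether a model has a complete, partial or no coding sequence (CDS). The dark blue leading transcript is the same in both pools in every panel, and in Hoxd3 it is a model without a coding sequence, at 69.76% and 73.03%.

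At the gene level, the ratios of the members between the pools were set beside those of all genes. The ratio was taken as log2 of (TPM + 1) in pool 1 over (TPM + 1) in pool 2, less the value of the median gene, which was 0.11. On this scale Hoxa3 stood at 0.09, Hoxc4 at -0.00, Hoxa4 at -0.09, Hoxd4 at -0.13, Hoxd3 at -0.21, Hoxb3 at -0.25 and Hoxb4 at -0.42. No member (0 of 7) was over 1.5-fold apart, beside 5.98% of 14942 genes whose mean level was 1 TPM or more. With 7 genes, a count of 0 does not set the members apart from that share. The median absolute value over those genes was 0.147, and Hoxd3, Hoxb3 and Hoxb4 lay beyond it. For Hoxb4, counting error gives the ratio a 95% half-width of 0.28. With 1 library per pool a difference between pools has no replicate check, and no p-value is given.

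How firmly reads could be placed differed from transcript to transcript. Posterior SDs were at most 11.6% of the posterior mean in the 7 transcripts that had over 60% of their windows to themselves. They reached 61.6% for Hoxd3-201 in pool 1, 75.4% for Hoxd3-203 in pool 2 and 72.1% for Hoxd4-203 in pool 2, which had 3.83%, 3.42% and 23.5% of their windows to themselves. Hoxd3-206 had only 14.0% of windows to itself but a posterior SD of 1.41% in pool 1 and 1.43% in pool 2. Its level is thus well fixed given the annotated models, and a transcript missing from the annotation would not be counted in this spread.

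**Figure D5:**
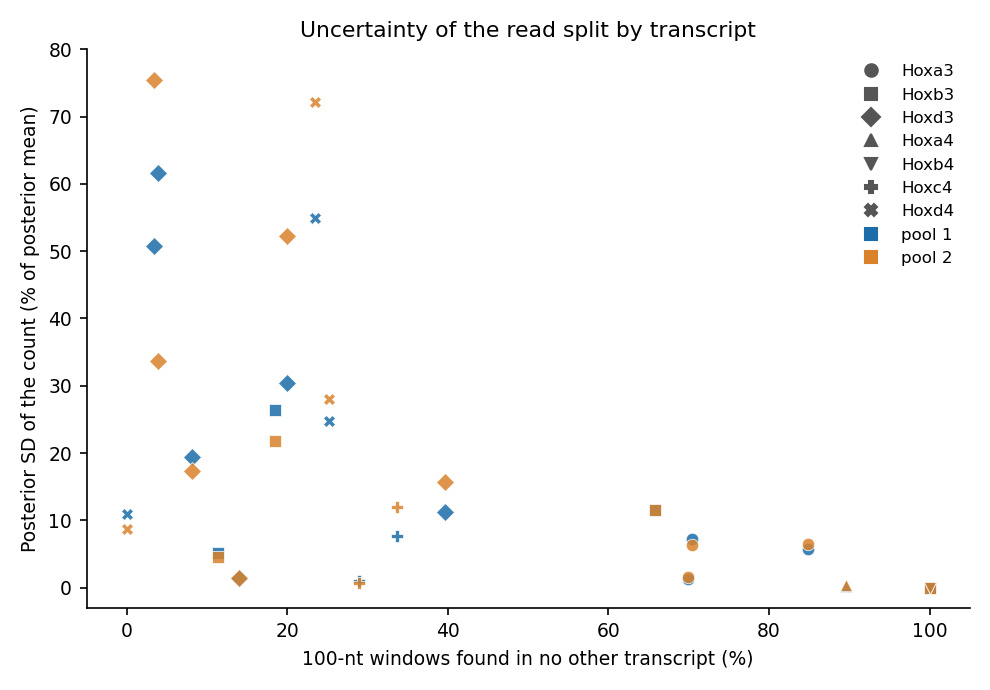
Posterior SD of the expected count as a percentage of the posterior mean (vertical) against the percentage of 100-nt windows found in no other annotated transcript (horizontal), for the 20 of 21 transcripts with reads; marker shape gives the gene, blue is pool 1 and orange pool 2. Transcripts on the right, with over 60% of windows to themselves, stay at or under 11.6%, whereas Hoxd3 and Hoxd4 models on the left spread up to 75.4%.

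Genes that act above or beside Hox groups 3 and 4 were mostly present. Of 23 listed regulators and partners, 18 had at least 1 TPM in both pools. The highest were Meis1 with 112.94 TPM in pool 1 and 92.27 TPM in pool 2, Meis2 with 90.96 and 96.74 TPM and Meis3 with 91.56 and 90.23 TPM, homeodomain cofactors that bind DNA together with Hox proteins. The lowest were Cdx2 and Cdx4, regulators of Hox genes in the trunk and tail, which were listed at 0 TPM in both pools. These are levels in the whole tissue, and whether these genes and the members share cells cannot be seen in bulk RNA.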

How the data were processed

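Per the labels, RNA was extracted with a mirVana kit and the assembly was mm10; a readme deposited beside the tables names GENCODE M4. No source used here names the aligner, the quantifier or the strand setting. The authors deposited, per gene and per transcript, expected counts (estimated counts), TPM, FPKM, isoform percent, posterior means and SDs, and the lower and upper bounds of the TPM signal, whose level is not stated. Symbols, exons, coding parts, sequences and coordinates (1-based) came from GENCODE vM21, in which 101510 of 103639 Ensembl transcripts matched and all 21 members kept their length. Isoform shares were recomputed from TPM and differed from the deposited isoform percent by at most 0.12 points. The window of 100 nt follows from the deposited effective lengths, which are the length less 99 nt. Both samples form 1 group by their labels, so no test between groups was possible; differences between pools are descriptions. All 7 members and their transcripts, overlapping genes and neighbouring Hox genes were named by rule. The members and the lists were chosen with earlier results of these data known. The steps for ratios and isoform shares were tested on simulated transcript counts. Reads that fit several transcripts were not simulated, so the test does not bear on how reads were divided. Software was R 4.3.3, Matplotlib 3.10.9, SciPy 1.17.1, pandas 2.3.3, NumPy 2.4.6 and Python 3.11.15. For alternative scalings, edgeR 4.0.16 and DESeq2 1.42.0 were applied to expected counts rounded to whole numbers. Some items that the rules select are not reported here.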

Additional observations from a re-analysis of the deposited data

How the results depend on the processing

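The mean over the pools of the 7 genes' summed level was 98.11 TPM. It became 121.6 TPM when rescaled without spike-ins, 97.0 TPM from posterior means, 65.43 as FPKM and 62.9 TPM with complete coding transcripts only, an alternative added after seeing the data, under which 4 of 7 genes kept their place in the order and Hoxc4 stood above Hoxd3. The median share of the leading transcript over the 5 members with several transcripts was 77.41%. It became 90.69% by expected counts, 74.93% from posterior means and 87.07% among protein-coding transcripts of 4 members, without Hoxd3, whose leading transcript is noncoding, and 73.39% to 81.42% with 1 pool left out. By expected counts, 1 member instead of 0 had a share at least 10 points apart, Hoxd4. The share of TPM in transcripts lying across another Hox gene was 10.19% by span and 0.5824% by shared exonic bases, because Hoxa3 crosses its neighbours by introns only. Ratios between the pools ran from -0.42 to 0.09. Over 8 other settings the lowest lay between -0.55 and -0.31 and the highest between 0.07 and 0.20, with 0 of 7 genes over 1.5-fold apart in each. The number of members higher in pool 1 was 1, but 2 from posterior means (Hoxc4 added, near 0 in both) and 3 without a filter, where Hoxa4 changed sign to 0.02 and Hoxc4 to 0.11. No paired analysis was possible because the series has 1 group only. With 2 libraries the SD of a level is itself poorly known, and counts under about 30 limit the short models of Hoxb3 and Hoxd3.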
